A study of Mus musculus with 6 samples.

Results

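Activins, inhibins, follistatins and activin receptors were followed in liver tumours and in the liver beside them. The members were every array probe whose gene symbol is Inhba, Inhbb, Inhbc, Inhbe, Inha, Fst, Fstl1, Fstl3, Acvr1 or Acvr2a. Of these 10 genes, 9 had a probe, and 11 of the 45281 probes of the array belonged to them. Inhbb, a beta subunit gene, had no probe under its symbol and was not analysed here.

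Activins are dimers of inhibin beta subunits. They bind the type II receptors Acvr2a and Acvr2b, which recruit a type I receptor that phosphorylates SMAD2 and SMAD3. Inhibins pair a beta subunit with the alpha subunit and oppose activins, and follistatin binds activins and keeps them from their receptors. In liver, activin A restrains hepatocyte growth, follistatin favours it, and the subunit genes Inhbc and Inhbe are expressed mainly by hepatocytes.

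The tumours came from C57BL/6J mice that had been given 3e+10 particles of the adeno-associated virus vector AAV-Rian-CMV on the day after birth, and tissue was taken at 6 months of age. Adjacent liver came from the same vector-treated mice, so both groups carry the vector's history and no liver of untreated mice was among the arrays. There were 3 tumours and 3 adjacent livers, from animals 1293, 1309 and 1316 by the sample titles. For the tumour of animal 1316 another label gives a different animal number, and results are also given without that array.

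RNA was read on Illumina bead arrays, in which a probe's brightness follows the abundance of its transcript, and all levels below are normalized log2 signals. The background level was estimated from each array, 29.2% to 31.7% of its probes exceeded it, and the lowest normalized signal above background lay between 6.84 and 6.97. Of the 11 member probes, 6 were above background on at least 3 arrays and 4 on none. Of 7 hepatocyte markers, Ttr, Apoa1, Cps1, Serpina1a and F2 were above background on all 6 arrays, with F2 (prothrombin) at 13.29 ± 0.06 in tumours and 13.41 ± 0.07 in adjacent liver (SD, n = 3 each). Tat, tyrosine aminotransferase, was below background on all 6, and the Alb probe on 1 tumour array. Precision is limited by the number of arrays, 3 in each group.

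Inhbe and Inhbc are neighbours in the same orientation, and the 250 bases before each start are shown because the 2 genes lie side by side and both read lower in tumours. The sequences are from RefSeq on GRCm38.p6, minus strand, for chr10:127351849-127352098 (Inhbe) and chr10:127370549-127370798 (Inhbc). Capitals mark every match, on either strand, to the SMAD box CAGAC, the TATA box TATAAA, the CCAAT box, the GC box GGGCGG, the cAMP response element (TGACGTCA) or the C/EBP-ATF response element (TGATGNAA). Promoters were listed for 9 of the 10 members.
Inhbe: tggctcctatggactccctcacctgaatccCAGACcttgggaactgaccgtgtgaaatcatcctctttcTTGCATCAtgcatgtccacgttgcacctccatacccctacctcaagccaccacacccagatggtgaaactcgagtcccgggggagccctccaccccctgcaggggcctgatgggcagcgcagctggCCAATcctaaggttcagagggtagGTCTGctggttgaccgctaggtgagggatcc
Inhbc: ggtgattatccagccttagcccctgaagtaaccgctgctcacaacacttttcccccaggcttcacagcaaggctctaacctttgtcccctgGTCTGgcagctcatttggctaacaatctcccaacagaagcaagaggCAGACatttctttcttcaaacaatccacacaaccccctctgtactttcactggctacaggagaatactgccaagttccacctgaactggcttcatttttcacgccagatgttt

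Each of these windows held a SMAD box on either strand, at 220 and 31 bases before the start in Inhbe and at 159 and 113 bases before it in Inhbc. SMAD boxes are short, and 42.2% of all 32851 such windows in the table held one. The Inhbe window also held CCAAT, found in 33.85% of windows, and TTGCATCA at 181 bases before the start, a match to the C/EBP-ATF response element on the other strand. That motif was in 3.45% of windows and was not found in the Inhbc window. Neither window held the TATA box (12.4% of windows), the GC box (32.7%) or the cAMP response element (1.55%). No motif overlapped another here, and a match is a string of letters, not a measured binding site.

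The main comparison asked which members differ between the tumours and the adjacent livers as groups. It did not pair the tissues of an animal, and fits with the animal as a block were alternatives. Follistatin rose strongly in the main fit and passed in all 14 alternative settings. The activin subunit genes Inhba and Inhbe fell in the main fit, and passed in 7 and 5 of the 14. Of the receptor genes, Acvr1 did not pass the threshold, and Acvr2a was below background on all arrays. By probe, 1 of 11 members was called higher and 2 lower (limma, adjusted p under 0.05 over all probes), where 2.30% and 1.15% of all probes were called higher and lower. Either way 3.45% of all probes were called, and 10.5% of the 14026 probes above background on at least 3 arrays. By gene the counts were the same, 1 higher and 2 lower of 9, where 3.64% and 1.56% of all genes, and 11.4% of genes above background on at least 3 arrays in either direction, were called. In 5 of the 11 probes the tumour and adjacent arrays did not overlap, 2 higher and 3 lower, where 9.20% and 9.73% of all probes (18.9% in all) had groups apart. An unadjusted p under 0.05 was reached by 6 of the 11 probes and by 14.4% of all probes. The median difference over the 9 member genes was -0.13, beside -0.01 over all 19057 genes. The middle gene was Inha, below background on all 6 arrays, so no shift of the members is read from that median.

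**Figure D1:**
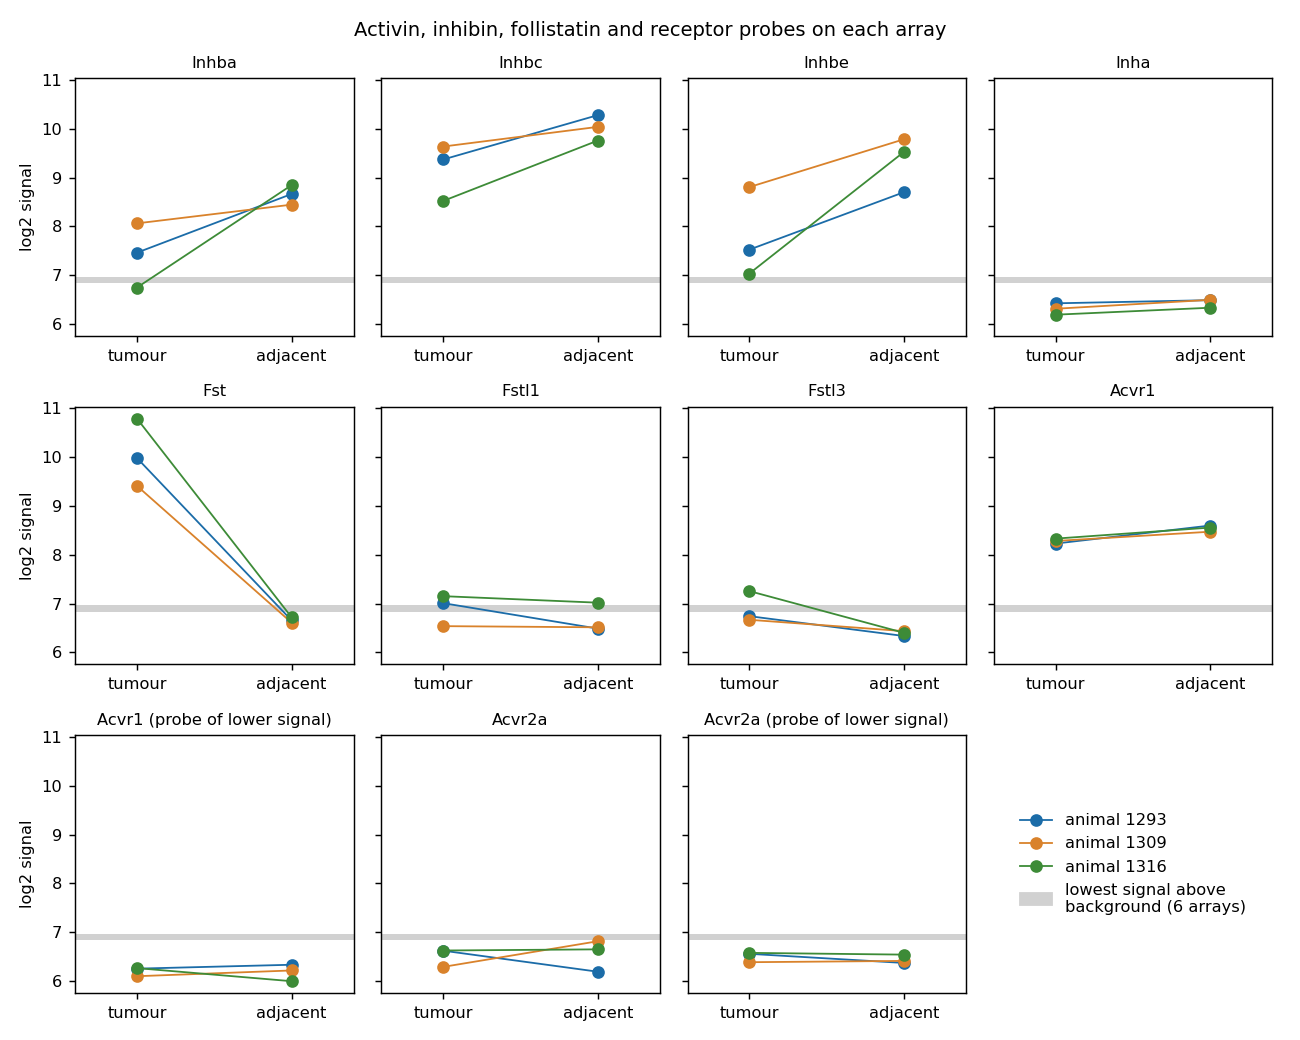
Normalized log2 signal of each member probe in the 3 tumours (left) and the 3 adjacent livers (right), with a line joining the 2 tissues of an animal and a grey band for the lowest signal above background over the 6 arrays. Fst lies far above the band in all 3 tumours and below it in adjacent liver, and Inhba, Inhbc and Inhbe lines slope the other way in every animal.

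Fst encodes follistatin, the secreted protein that binds and neutralises activins (chromosome 13, 114452262 to 114458989, GRCm38.p6). It read 9.98, 9.41 and 10.79 in the tumours of animals 1293, 1309 and 1316, against 6.66, 6.61 and 6.72 in their adjacent livers. All 3 tumour arrays were above background and all 3 adjacent arrays below it, so the groups were far apart and only a lower bound on the fold can be read. Fst averaged 10.06 ± 0.69 in tumours and 6.66 ± 0.06 in adjacent liver (SD, n = 3 each), at least 8.69-fold higher in tumours. For that bound each adjacent array was given the lowest signal above background, or the probe's own if larger. The fitted log2 difference was 3.40 (SE 0.26, adjusted p = 1.33e-05, limma), and it passed in each of 14 alternative settings. Without the tumour of animal 1316 the difference was 3.004. The raw signals gave the same picture, with 988.7, 799.3 and 2158.8 in the tumours against 158.5, 164.5 and 175.3 in adjacent liver.

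The other follistatin-related genes stayed close to background. Fstl3, a second secreted activin antagonist, read 6.74, 6.67 and 7.26 in the tumours against 6.34, 6.44 and 6.40 in adjacent liver, and its groups did not overlap. It was above background in the tumour of animal 1316 and on no other array, so no fold is given. Its fitted difference of 0.50 (SE 0.16) did not pass (adjusted p = 0.132, limma). Fstl1, a secreted glycoprotein with a follistatin domain, read 7.01, 6.54 and 7.15 in the tumours and 6.49, 6.52 and 7.02 in adjacent liver. These groups overlapped, and the interval of the difference ran from -0.18 to 0.63 (95% interval, limma, adjusted p = 0.691).

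Inhba encodes the beta A subunit, which makes up activin A (chromosome 13, 16004256 to 16031609, GRCm38.p6). It read 7.46, 8.06 and 6.75 in the tumours of animals 1293, 1309 and 1316, against 8.66, 8.45 and 8.85 in adjacent liver. Every tumour lay below every adjacent liver, and the tumour of animal 1316 was below background. Inhba averaged 7.42 ± 0.66 in tumours and 8.65 ± 0.20 in adjacent liver (SD, n = 3 each), and fell by 1.23 on the log2 scale (SE 0.26, adjusted p = 0.0219, limma). It passed in 7 of 14 alternative settings. The call was lost without adjacent liver 1293 (adjusted p = 0.0618), tumour 1293 (0.0943), adjacent liver 1309 (0.0531) or adjacent liver 1316 (0.104), and kept without tumour 1316 (0.0288).

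Inhbe encodes the beta E subunit, which the liver secretes (chromosome 10, 127349402 to 127351848, GRCm38.p6). It read 7.52, 8.81 and 7.03 in the tumours against 8.70, 9.79 and 9.53 in adjacent liver. Each tumour was lower than its own adjacent liver, but the groups overlapped, since the tumour of animal 1309 read above the adjacent liver of animal 1293. Inhbe averaged 7.79 ± 0.91 in tumours and 9.34 ± 0.57 in adjacent liver (SD, n = 3 each), and fell by 1.55 on the log2 scale (SE 0.38, adjusted p = 0.0454, limma). With the animal as a block its adjusted p was 0.00319. It passed in 5 of 14 alternative settings, and the call was lost without tumour 1293 (adjusted p = 0.198), adjacent liver 1309 (0.182), adjacent liver 1316 (0.166) or tumour 1316 (0.132).

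Inhbc encodes the beta C subunit (chromosome 10, 127356322 to 127370548, GRCm38.p6) and lies 4473 bases from Inhbe, with 0 annotated genes between them. It read 9.37, 9.64 and 8.52 in the tumours against 10.28, 10.04 and 9.76 in adjacent liver, all 6 arrays being above background. The groups did not overlap, yet the difference of -0.85 (SE 0.24) did not pass without a block (adjusted p = 0.0871, limma). It passed with the animal as a block (adjusted p = 0.0111, limma), which gave 1 member higher and 3 lower. With the block at an estimated correlation it did not (adjusted p = 0.0646, limma). In the fit with the animal as a fixed block 2.88% of all probes were called higher and 2.25% lower (5.13% in all), and by gene 4.56% and 3.11%. Without the tumour of animal 1309 Inhbc also passed (adjusted p = 0.0166), with a difference of -1.08, and without the tumour of animal 1316 the difference was -0.52 (adjusted p = 0.215).

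The 6 measured genes nearest to this pair, 3 on each side, were not called. Gli1, a Hedgehog pathway transcription factor, differed by -0.09 (SE 0.18), Arhgap9 by 0.03 (SE 0.15) and Mars1, methionyl-tRNA synthetase, by -0.38 (SE 0.14) on the side of Inhbe. On the side of Inhbc, R3hdm2 differed by -0.30 (SE 0.15), the muscle adaptor gene Stac3 by -0.37 (SE 0.19) and Shmt2, the mitochondrial serine hydroxymethyltransferase, by -0.23 (SE 0.13). Their adjusted p-values lay between 0.199 and 0.963 (limma). Of the 6, Mars1 had groups that did not overlap, and Gli1 and Arhgap9 were below background on all arrays. Stac3 was above background on 1 array, the adjacent liver of animal 1316, so its difference cannot be read as a fold.

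Inha encodes the alpha subunit that turns a beta subunit into an inhibin. Its probe was below background on all 6 arrays, at 6.42, 6.31 and 6.19 in the tumours and 6.49, 6.50 and 6.33 in adjacent liver. No fold can be read at that level (difference -0.13, SE 0.13, adjusted p = 0.75, limma).

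Acvr1 encodes a type I receptor used mainly by bone morphogenetic proteins. Its brighter probe read 8.23, 8.29 and 8.33 in the tumours against 8.60, 8.47 and 8.56 in adjacent liver. The groups did not overlap, but the difference was small, at -0.26 (SE 0.12), and did not pass (adjusted p = 0.339, limma). Its 95% interval ran from -0.52 to -0.00353 (limma). The other Acvr1 probe and both probes of Acvr2a, the type II activin receptor, were below background on all arrays. Their differences of 0.02, -0.04 and 0.07 can therefore not be read as folds.

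**Figure D2:**
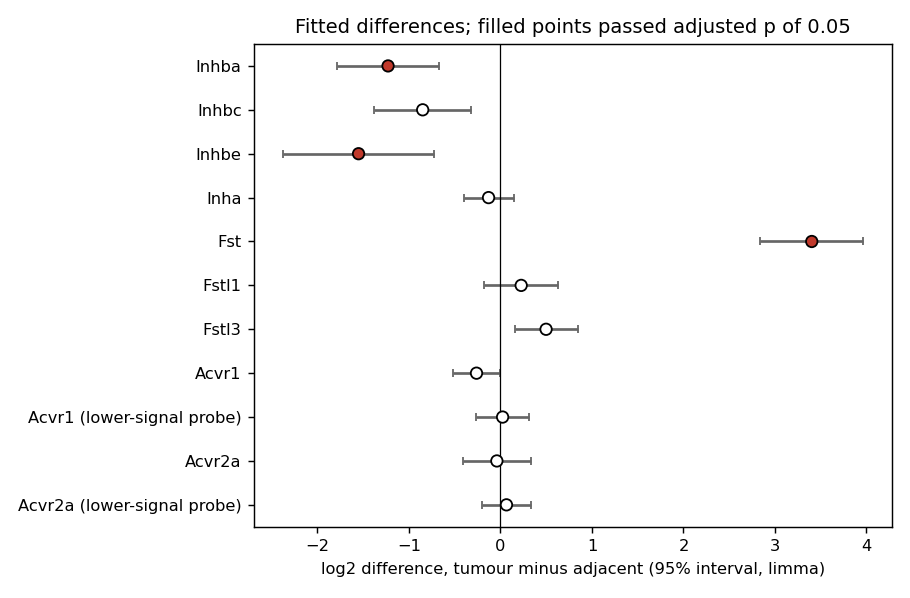
Fitted log2 difference of each member probe, tumour minus adjacent, with its 95% interval from limma over the 6 arrays; filled points passed the adjusted threshold. Fst stands at 3.40, Inhbe at -1.55 and Inhba at -1.23, and the remaining probes lie between -0.85 and 0.50 with open points.

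Within animals, the gaps between tumour and adjacent liver in Inhba, Inhbc and Inhbe were widest in animal 1316 and narrowest in animal 1309. In animals 1293, 1309 and 1316 the tumour differed from its own adjacent liver by -0.91, -0.40 and -1.24 log2 units in Inhbc and by -1.18, -0.98 and -2.49 in Inhbe, all arrays being above background. For Inhba the differences were -1.20 and -0.38 in animals 1293 and 1309, and -2.01 or lower in animal 1316, whose tumour was below background.

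For Fst, with every adjacent array below background, the tumours were higher by at least 3.02, 2.45 and 3.89 log2 units in animals 1293, 1309 and 1316, bounds that have no order of their own. Acvr1 did not follow the order of the subunit genes, with -0.37, -0.19 and -0.23. The remaining members were below background in both tissues of at least 1 animal. Of the 4935 genes above background on at least 3 arrays and with 1 sign in all 3 animals, 44.7% had the order of Inhbc and Inhbe, so it is common on these arrays, and with 3 animals it was not tested.

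**Figure D3:**
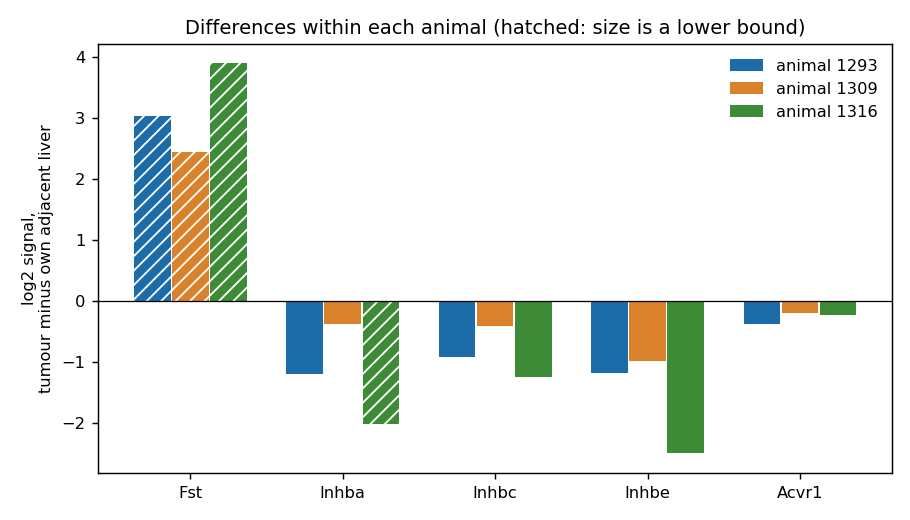
Log2 signal of the tumour minus that of the adjacent liver of the same animal for 5 members, 1 bar per animal, with no error since each bar is 1 pair of arrays; hatched bars have 1 side below background and are lower bounds on the size. The bars of animal 1316 are the longest in Inhba, Inhbc and Inhbe and reach -2.49 in Inhbe, while those of Acvr1 lie between -0.37 and -0.19.

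In bulk tissue, fewer cells of a type and less RNA per cell cannot be told apart, so markers of other liver cells were read on the same arrays. Of 8 stellate cell and fibroblast markers, 2 fell and 0 rose: Reln by 1.25 (SE 0.25, adjusted p = 0.0168, limma) and Dcn by 0.93 (SE 0.21, adjusted p = 0.0327). Over all genes 1.56% were called lower and 3.64% higher, and 11.4% of genes above background on at least 3 arrays were called either way. Dcn encodes decorin, a matrix proteoglycan that also binds TGF-beta. The summed signal of this list, with Dcn the brightest gene on every array, was 4620 to 7888 in tumours and 8821 to 10964 in adjacent liver. Of the other 6 markers Lrat, the retinol-esterifying enzyme of stellate cells, read 7.14 ± 0.33 in tumours and 7.70 ± 0.12 in adjacent liver (SD, n = 3 each), without passing (adjusted p = 0.1) and with groups that did not overlap. Acta2, smooth muscle actin, differed by 1.17 (adjusted p = 0.146, 0.0163 with the animal as a fixed block and 0.113 with the block at an estimated correlation). Col3a1, a fibrillar collagen gene, was below background in adjacent liver and at least 1.07-fold higher in tumours (adjusted p = 0.061, and 0.0482 with the block at an estimated correlation).

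Of 5 Kupffer cell and macrophage markers, 0 were called, and 3 had an unadjusted p under 0.05, as did 19.1% of all genes. Their summed signal, with Vsig4 the brightest gene on every array, was 2473, 3561 and 832.4 in the tumours of animals 1293, 1309 and 1316, against 4454, 2958 and 4276 in adjacent liver. The tumour of animal 1316 was the lowest of the 6 arrays both in this sum and in Inhba, Inhbc and Inhbe. That array was also the lowest in the hepatocyte, stellate cell, endothelial and neutrophil sums, but not in the cholangiocyte and lymphocyte sums. Cd5l was below background on all arrays. The part of stellate cells and macrophages in the falls of Inhba and Inhbe was not tested.

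The summed hepatocyte marker signal, with Ttr or Apoa1 the brightest gene on each array, was 136310 to 158401 in tumours and 145393 to 154186 in adjacent liver. Of 7 hepatocyte markers, 1 was called higher and 1 lower, where 3.64% and 1.56% of all genes were. The lower one was a dim Alb (albumin) probe, 6.87 ± 0.26 in tumours and 7.70 ± 0.10 in adjacent liver (SD, n = 3 each), and the higher one Cps1 of the urea cycle, with a difference of 0.59 (SE 0.14). Endothelial markers had 0 of 6 called, with sums of 5260 to 6964 in tumours and 6356 to 9141 in adjacent liver. Clec4g was the brightest gene of that list on every array. Of the endothelial markers Lyve1, a hyaluronan receptor gene, differed by 0.59 (adjusted p = 0.275, limma). It was called with the animal as a fixed block (0.0217), not with the block at an estimated correlation (0.219). Cholangiocyte (0 of 5), lymphocyte (0 of 4) and neutrophil (0 of 4) markers were not called, and 4, 1 and 1 of these lists' genes were below background on every array. Their sums were 846.5 to 1253 in tumours against 800.3 to 1253 in adjacent liver for cholangiocytes, 419.4 to 431.7 against 365.1 to 389.4 for lymphocytes, and 742.5 to 1458 against 867.7 to 2195 for neutrophils. Of the 4 lymphocyte markers, 0 were above background on at least 3 arrays, so no difference is read from their sums.

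The rest of the pathway was read from 7 lists of receptors, SMAD proteins, target genes, other ligands, other antagonists and processing proteases. Of their 82 measured genes, 0 were called by their brightest probe (limma), where 5.21% of all genes were called. An unadjusted p under 0.05 was reached by 21 of the 82, and by 19.1% of all genes. With the animal as a fixed block 7 of the 82 were called, 3 higher and 4 lower, where 7.67% of all genes were. With the block at an estimated correlation Tgfbr2, Sparc, Gdf2 and Gdf10 passed (adjusted p = 0.0423, 0.0444, 0.0456 and 0.0485, limma) and Tgfbr3, Id2 and Hamp did not (0.051, 0.0734 and 0.0762). That fit called 4 of the 82, where 5.98% of all genes were called. Below, "the block" is the fixed one. Over the 82 genes the median difference was -0.05, and 39 of them were below background on every array.

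Among 13 receptors of the TGF-beta superfamily, 0 were called without the block. The smallest p belonged to Tgfbr2, the type II receptor for TGF-beta, at 10.99 ± 0.42 in tumours and 10.15 ± 0.35 in adjacent liver (SD, n = 3 each). Its difference of 0.85 (SE 0.22) had an adjusted p of 0.0569, and 0.013 with the block. The other Tgfbr2 probes, below background in adjacent liver, differed by -0.14 to 0.30. Tgfbr3, betaglycan, the co-receptor through which inhibin blocks activin, read 0.68 lower (SE 0.18, adjusted p = 0.0657, and 0.0341 with the block). Acvr2b, a type II activin receptor, read 8.37 ± 0.20 in tumours and 8.79 ± 0.13 in adjacent liver (SD, n = 3 each) without passing (adjusted p = 0.164). The brightest probe of Acvr1b, the main type I activin receptor, was below background on all arrays.

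Of 13 SMAD proteins and their regulators, 0 were called. Smad2, which activin receptors phosphorylate, had the smallest p, with a difference of -0.48 (SE 0.14, adjusted p = 0.0936, limma). Smad3, which they also phosphorylate, went the other way without passing, by 0.36 (SE 0.16, adjusted p = 0.339, limma). Its dimmer probe differed by 0.45 (SE 0.17, adjusted p = 0.223, limma). Among 11 genes known as targets of SMAD2 and SMAD3, 0 were called by their brightest probe. Tgfbi, a matrix protein gene induced by TGF-beta, read 0.51 lower on that probe (SE 0.14, adjusted p = 0.0763) and fell by 0.59 on its dimmer probe (SE 0.14, adjusted p = 0.036), the 1 of 150 list probes that passed.

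Among 8 targets of the SMAD proteins used by bone morphogenetic proteins, 0 were called, and 2 were with the block. Id2, an inhibitor of helix-loop-helix factors, read 0.86 lower (SE 0.25, adjusted p = 0.09, and 0.0472 with the block), but its other probes differed by 0.18 and 0.06. Hamp, the iron hormone hepcidin, had a difference of 0.60 (SE 0.17; adjusted p = 0.0972 without and 0.0457 with the block). Its level was 14.81 ± 0.05 in tumours and 14.21 ± 0.39 in adjacent liver (SD, n = 3 each).

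Of 18 other ligands of the superfamily 0 were called, and 2 fell with the block. These were Gdf2, which encodes bone morphogenetic protein 9 of stellate cells (difference -0.78, SE 0.20, adjusted p = 0.056, and 0.042 with the block), and Gdf10 (-0.84, SE 0.22, adjusted p = 0.0603, and 0.0326 with the block). Of 19 other antagonists and follistatin-domain proteins 0 were called. Sparc, a matrix protein with a follistatin domain, had a difference of 0.71 (SE 0.18; adjusted p = 0.0588 without and 0.0198 with the block), and its other probes had differences of 0.43 and 0.47. Of the 4 convertases that cleave activin precursors 0 were called, and Pcsk6 had the smallest p (difference -0.62, SE 0.19, adjusted p = 0.11).

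**Figure D4:**
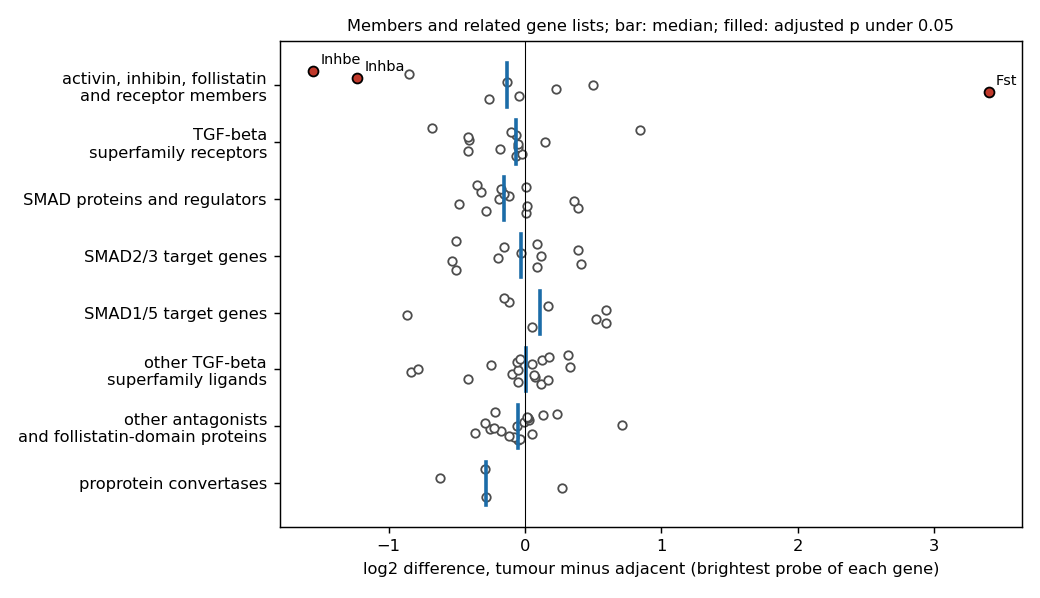
Log2 difference, tumour minus adjacent, of the brightest probe of each gene, for the 9 measured members (top row) and the 7 related lists. Blue bars are list medians, which lie between -0.29 and 0.11, and the filled points that passed the threshold are Fst, Inhba and Inhbe.

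The genes whose level across the 6 arrays was most like that of Fst were Syngr1, Tinag, Neurl1a, Alkbh6 and Cd63, out of 8297 genes above background on at least 3 arrays. Their Pearson correlations with Fst lay between 0.9972 and 0.9996. Such values describe 6 points in 2 groups from 3 animals, and 70 genes reached 0.99. Tinag, a basement membrane glycoprotein gene, read 8.98 ± 0.56 in tumours and 6.37 ± 0.15 in adjacent liver, and the tetraspanin gene Cd63 read 11.78 ± 0.58 in tumours and 7.98 ± 0.05 in adjacent liver (SD, n = 3 each). Syngr1, Tinag and Neurl1a were, like Fst, below background in adjacent liver, and so passed the filter of 3 arrays through the tumours alone. They read at least 1.58-fold, 4.09-fold and 6.81-fold higher in tumours. Alkbh6 differed by 0.72 on the log2 scale.

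**Figure D5:**
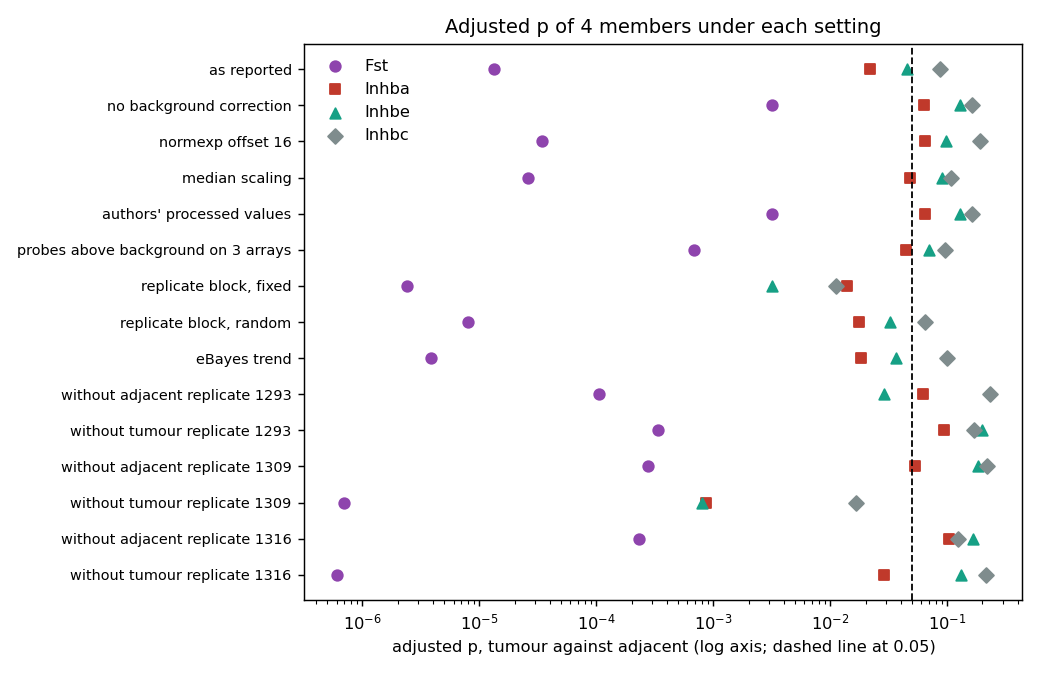
Adjusted p from limma (log axis) of Fst, Inhba, Inhbe and Inhbc in the reported fit and in 14 alternative settings, with the threshold dashed. Fst stays left of the line in every setting, while Inhba is left of it in 7, Inhbe in 5 and Inhbc in 2 of the 14.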

How the data were processed

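Tumour and adjacent liver RNA of 3 animals was read on 1-colour Illumina bead arrays. The authors' deposited intensities are linear signals of 45281 probes, not normalized between arrays. GenomeStudio is named, without a role, per the submitters' processing notes. The authors' processed log2 values, also deposited, lie within 0.00195 of quantile-normalized raw intensities and served as an alternative.

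Intensities were background-corrected with normexp (offset 50), quantile-normalized and put on the log2 scale. An array's background level lay 3 SDs above the mode of its log2 signals, the SD being taken from signals under the mode (168.5 to 191.7 raw units). Tumour and adjacent arrays were compared as unpaired groups with lmFit and eBayes (limma 3.58.1, R 4.3.3), with Benjamini-Hochberg adjustment over all probes. The fit was tested on simulated data. Symbols came from the platform annotation, updated by gene identifier (GRCm38.p6). A gene was read from its probe of highest mean signal.

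All member probes were named, with the called or lowest-p genes of each list. So were 3 neighbours on each side of Inhbe and Inhbc, and the 5 genes most like Fst. Acvr2b, Acvr1b, Smad3, Dcn and other markers were added after their values were seen. Members and lists were chosen with earlier results of these data known. By the sample titles same-numbered arrays come from 1 animal, and their deviations from the group means correlated at 0.41, 0.25 and 0.09 (animals 1293, 1309 and 1316). The alternatives changed background correction, scaling, probe filter, the animal block, the variance trend and the arrays included.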

Additional observations from a re-analysis of the deposited data

How the results depend on the processing

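Fst was the 1 member called higher in the reported fit and in all alternatives, with differences between 2.78 (no background correction) and 3.94 (offset 16). The number of members called lower, 2 as reported by probe and by gene, was 0 without background correction, 0 with an offset of 16, 0 on the authors' processed values and 0 with the probes of a gene averaged (Inhba adjusted p = 0.0684, Inhbe 0.11, over 19057 averaged genes). It was 1, Inhba, with median scaling and with only probes above background on 3 arrays. The cause was not tested. Over all probes the share called lower, 1.15% as reported, was 0.545% without background correction, 0.243% with an offset of 16, 0.539% on the authors' values, 0.501% with median scaling and 2.31% of the filtered probes. Leaving out 1 array gave 0 to 3 members lower, and shares over all probes of 0.227% (without tumour 1293) to 2.44% (without tumour 1309). They were 0 without tumour 1293, adjacent liver 1309 or adjacent liver 1316, 1 without adjacent liver 1293 (Inhbe) or tumour 1316 (Inhba), and 3 without tumour 1309. The paired fit, with the animal as a fixed replicate block, called 3 lower, Inhbc being the third (adjusted p = 0.0111, limma), and changed no other member's call. The fit with a random block called 2 (Inhbc 0.0646), where 1.46% of all probes were called lower. Genes of the 7 lists called were 0 as reported, 1 with median scaling, 7 with the fixed block, 4 with the random block and 0 to 7 with 1 array left out (1 without adjacent liver 1293, 3 without adjacent liver 1309, 7 without tumour 1309, where 8.30% of all genes were called, and 1 without adjacent liver 1316). Over all genes the shares called were 5.21% as reported, 4.64% with median scaling, 7.67% with the fixed block and 5.98% with the random block. They were 3.73% without adjacent liver 1293, 3.09% without adjacent liver 1309 and 2.60% without adjacent liver 1316. Of the probes near background, 2 changed sign with 1 array left out, the dimmer Acvr1 probe (-0.0694 to 0.10) and an Acvr2a probe (-0.22 to 0.0928). Members below background on every array, Inha, Acvr2a and the dimmer Acvr1 probe, were too dim for a change to be read.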
